A study of Mus musculus with 6 samples.

Results

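The 10 genes described here encode the TAM receptors (Tyro3, Axl and Mertk), their ligands Gas6 and Pros1, and 5 other proteins with which phagocytes bind and take up apoptotic cells (Timd4, Mfge8, Itgav, Itgb3 and Itgb5). They were chosen by symbol from the deposited gene tables, where each symbol had 1 identifier. They made up 10 of the 46072 identifiers, and 9 of the 10 were among the 16138 genes with enough counts to be tested. Tyro3 was the gene left out of the test.

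The RNA came from monocytes of female C57BL/6 mice, isolated from the spleen by negative magnetic selection and not stimulated after isolation. The selection removes cells that carry, among others, CD3e (T cells), CD45R (B cells), Ly-6G (neutrophils) and NK1.1 (NK cells). The 3 Con mice were gavaged with water, and the 3 Van mice received 2 mg of vancomycin per day by the same route, an antibiotic that is poorly absorbed from the gut. Gavage lasted 6 days, and the mice then rested for 8 days without antibiotic (6 to 8 days in the sample records). Each library came from 1 mouse, both groups carried the same wild-type background, and the mice were 8 to 10 weeks old when obtained. The question addressed was whether changing the gut bacteria, and the bacterial lipids that reach the blood, alters gene expression of resting systemic monocytes.

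Apoptotic cells expose phosphatidylserine on their outer surface, and phagocytes recognise it in several ways. Timd4 (TIM-4) binds the lipid directly, Gas6 and protein S (Pros1) bridge it to the TAM receptor tyrosine kinases, and Mfge8 (lactadherin) bridges it to integrins made of the alpha-v chain (Itgav) paired with the beta-3 (Itgb3) or beta-5 (Itgb5) chain. TAM receptors also restrain Toll-like receptor and interferon signalling in myeloid cells, and in the spleen Mertk, Axl and Timd4 are well known from tissue macrophages.

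None of the 9 genes tested was called between Van and Con at an adjusted p of at most 0.05 (edgeR quasi-likelihood test, Benjamini-Hochberg adjustment over all genes tested), against 2.00% of all genes (1.08% called higher and 0.917% called lower in Van). By sign, 5 were higher and 4 lower in Van, and their median log2 fold change was 0.02, against -0.0014 over all genes tested. At an unadjusted p under 0.05 there was 1 gene of the 9, Itgav, against 16.5% of all genes (8.37% higher and 8.14% lower in Van). Itgav was also the 1 gene whose 3 Van libraries all lay below its 3 Con libraries, a separation in either direction that 22.5% of all genes showed, and it was the 1 gene called by DESeq2, which called 7.36% of the genes to which it gave an adjusted p. The other 8 genes had overlapping groups.

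The libraries held between 43.4M and 61.8M estimated counts. The labelled cell type was checked against 12 monocyte genes, all tested, whose summed level was 28761 to 29633 CPM (counts divided by the library size after TMM scaling) in Con and 27453 to 29143 CPM in Van. Lyz2 weighed most in this sum, with means of 12137 ± 665 CPM in Con and 11290 ± 1397 CPM in Van (SD, n = 3 each). By sign 8 of the 12 monocyte genes were lower and 4 higher in Van. At an unadjusted p under 0.05 by edgeR there were 4 (33.3%, against 16.5% of all genes), 3 of them lower. Csf1r, the receptor for the monocyte growth factor, had means of 3168 ± 159 CPM in the Con libraries and 3358 ± 295 CPM in the Van libraries (SD, n = 3 each). Markers of other spleen cells were present at lower levels: the 12 genes of splenic macrophages summed to 3039, 3628 and 3519 CPM in the Con libraries and to 3527, 4488 and 3937 CPM in the Van libraries. None of these 12 was called by edgeR with group as the only term and the filter on low counts, and 3 (Vcam1, Nr1h3 and, lower in Van, Siglec1) were called by DESeq2. By sign 10 of the 12 were higher in Van, and 7 (58.3%) had an unadjusted p under 0.05 by edgeR, 6 of them higher, and none was at 0 in every library. A few genes weighed most in the macrophage sum. These were Hmox1 (means of 1067 CPM in Con and 1233 CPM in Van), Slc40a1 (626 and 672 CPM) and Vcam1 (624 and 856 CPM). Since some TAM genes are strongly expressed by such macrophages, these sums are given again beside the results they moved with.

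Levels between genes were compared by FPKM, which is scaled to transcript length. Axl had the most transcript of the 10, at 114 FPKM averaged over the 6 libraries, higher than 96.7% of the genes tested. It was followed by Itgb5 at 50.9 FPKM, Itgav at 18.1 FPKM, Mertk at 14.1 FPKM and Pros1 at 10.9 FPKM. Timd4 (8.38 FPKM), Itgb3 (7.99 FPKM) and Mfge8 (7.30 FPKM) came next, and Gas6 was far lower at 1.67 FPKM, above 34.7% of genes. Axl, Itgb5 and Gas6 were each separated from their neighbours in this order in every library. Itgav and Mertk overlapped across the 6 libraries, and Timd4, Itgb3 and Mfge8 overlapped with one another, so the order within these sets is not set by these data. The ranges of Pros1 and Timd4 also overlapped, with Pros1 above Timd4 within each of the 6 libraries. The resting monocyte preparations thus held transcripts of 2 of the 3 TAM receptors, of both ligands and of both integrin beta chains.

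**Figure D1:**
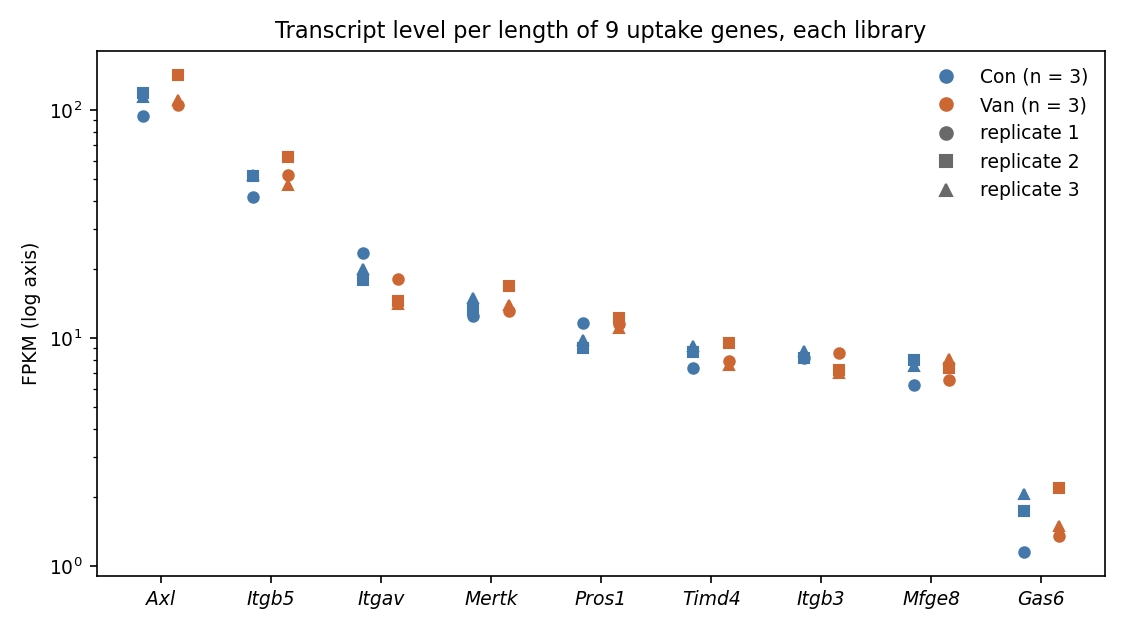
Transcript level in FPKM on a log axis for the 9 genes tested, with 1 point per library (blue, Con, n = 3; orange, Van, n = 3; the shape marks the replicate number). Axl lies between 93.9 and 143 FPKM and Gas6 between 1.15 and 2.20 FPKM, and the Con and Van points overlap in height for Axl and for Gas6.

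Axl (GRCm38, chr7:25757273-25788705, minus strand) is the TAM receptor that responds to Gas6. Its level was 480.3, 606 and 566 CPM in the Con libraries and 535, 709 and 561 CPM in the Van libraries. The lowest value was in Con 1 and the highest in Van 2, and the other 4 libraries lay together between them. The mean was 551 ± 64.0 CPM in Con and 601 ± 94.0 CPM in Van (SD, n = 3 each), a log2 fold change of 0.13 (SE 0.119, 95% CI -0.15 to 0.40, edgeR adjusted p = 0.669). Permuting the mice between the groups gave p = 0.6 for the CPM of Axl (exact, two-sided), where 0.1 is the smallest p that 3 against 3 can give. The difference was smaller than the spread between mice, and the interval on the linear scale ran from 0.904 to 1.32-fold. Without Van 2 the log2 fold change was -0.01.

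Mertk (chr2:128698956-128802894, plus strand) is the TAM receptor that binds both ligands and drives uptake in macrophages. It measured 64.2, 68.1 and 75.9 CPM in Con and 67.5, 84.6 and 72.0 CPM in Van. Con 1 was again the lowest and Van 2 the highest library, and the groups overlapped. The means were 69.4 ± 5.99 and 74.7 ± 8.86 CPM (SD, n = 3 each), with a log2 fold change of 0.11 (SE 0.0978, 95% CI -0.12 to 0.33, edgeR adjusted p = 0.666). On the linear scale the interval ran from 0.922 to 1.3-fold. The log2 fold change of Mertk was 0.0077 without Van 2, 0.05 without Con 1, 0.17 without Van 1 and 0.18 without Con 3.

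Tyro3 (chr2:119797733-119818104, plus strand), the TAM receptor best known from neurons and dendritic cells, was almost absent. It had 2.64 estimated counts in Con 1 and 0 in the other 5 libraries. A count of 0 allows up to 3 fragments, or about 8 of these estimated counts, which was 0.131 to 0.185 CPM depending on the library, so a lower level was not detectable at this depth (a limit that covers counting error only). No fold change is given because both groups lay at or under that floor.

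The TAM ligands stood at very different levels. Gas6 (chr8:13465374-13494490, minus strand), the vitamin K-dependent ligand of all TAM receptors, measured 3.61, 5.42 and 6.29 CPM in Con and 4.22, 6.65 and 4.63 CPM in Van, from 187 to 339 estimated counts per library. It spread more within a group than any other of the 9 genes, with a coefficient of variation of 26.0%. The log2 fold change of Gas6 was 0.02 (SE 0.244, 95% CI -0.54 to 0.57, edgeR adjusted p = 0.984), an interval of 0.688 to 1.49-fold on the linear scale. The sign of Gas6 turned when 1 library was left out, to -0.18 without Con 1 and -0.20 without Van 2. Its exons share 34 bases with Tmem255b on the opposite strand, and Tmem255b was at 0 in every library.

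Pros1 (chr16:62854307-62929346, plus strand) encodes protein S, the anticoagulant that serves as ligand of Mertk and Tyro3. It measured 46.2, 35.5 and 38.0 CPM in Con and 45.4, 47.1 and 43.6 CPM in Van. The 3 Van mice lay close together, and Con 1 lay among them while Con 2 and Con 3 were lower. The means were 39.9 ± 5.63 and 45.4 ± 1.77 CPM (SD, n = 3 each), and the log2 fold change was 0.19 (SE 0.0991, 95% CI -0.04 to 0.41, edgeR adjusted p = 0.401, exact two-sided permutation p = 0.3). This was the highest positive log2 fold change among the 9 genes, and it did not pass the test. Without Con 1 it was 0.30 and without Con 2 it was 0.11, with adjusted p of 0.115 and 0.697 by edgeR.

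Timd4 (chr11:46810800-46844332, plus strand), the phosphatidylserine receptor that tethers apoptotic cells, measured 19.5, 22.7 and 23.6 CPM in Con and 20.6, 24.0 and 19.7 CPM in Van. The groups overlapped almost fully. The log2 fold change was -0.03 (SE 0.106, 95% CI -0.27 to 0.21, edgeR adjusted p = 0.925). Mfge8 (chr7:79133768-79149060, minus strand), the soluble bridge to the alpha-v integrins, measured 15.8, 20.1 and 18.5 CPM in Con and 16.4, 17.7 and 19.9 CPM in Van. No library of either group stood apart. Its log2 fold change was -0.01 (SE 0.113, 95% CI -0.26 to 0.25, edgeR adjusted p = 0.985), and the sign of both Timd4 and Mfge8 depended on which library was included.

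Itgav (chr2:83724397-83806916, plus strand) encodes the alpha-v chain that pairs with several beta chains to bind Mfge8, vitronectin and latent TGF-beta. It measured 193, 147 and 158 CPM in the Con libraries and 144, 113 and 111 CPM in the Van libraries. All 3 Van libraries lay below all 3 Con libraries, although Van 1 and Con 2 were close to each other. The mean was 166 ± 24.0 CPM in Con and 123 ± 18.2 CPM in Van (SD, n = 3 each), and the log2 fold change was -0.43 (SE 0.126, 95% CI -0.72 to -0.15), a linear ratio of 0.741.

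The test of Itgav depended on the tool and on the terms of the model. The quasi-likelihood test of edgeR gave an adjusted p of 0.131 (unadjusted p = 0.00793), which did not pass, and the DESeq2 Wald test on the same counts gave an adjusted p of 0.0115, which did. With the replicate number added as a block, which is not stated to pair mice, edgeR gave an adjusted p of 0.0453. The exact two-sided permutation test gave p = 0.1, the smallest it can give here. With each library left out in turn the log2 fold change of Itgav stayed between -0.56 and -0.31, and the adjusted p by edgeR was between 0.0742 and 0.363. A noncoding gene, Gm13684, lies on the opposite strand and shares 634 exon bases with Itgav. Its level was 0.426 ± 0.264 CPM in the Con and 0.666 ± 0.258 CPM in the Van libraries (SD, n = 3 each), and whether strand was used in the counting is not stated.

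The beta chains that pair with Itgav were not called. Itgb3 (chr11:104608000-104670476, plus strand), the beta-3 chain that platelets also carry in large amounts, measured 56.8, 56.7 and 59.5 CPM in Con and 59.5, 48.8 and 48.6 CPM in Van. Van 1 lay with the Con libraries and the other 2 Van libraries lay below them. The log2 fold change of Itgb3 was -0.14 (SE 0.0873, 95% CI -0.34 to 0.06, edgeR adjusted p = 0.483), and it was -0.24 without Van 1, -0.09 without Van 2 and -0.09 without Van 3. The 11 platelet and megakaryocyte markers summed to 35.8 to 64.7 CPM in Con and 31.8 to 41.8 CPM in Van. By sign 10 of the 11 were lower and 1 was higher in Van, with a median log2 fold change of -0.55. None of these markers was called, and their part in the Itgb3 level was not tested.

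Itgb5 (chr16:33829665-33949338, plus strand), the beta-5 chain, measured 153, 188 and 186 CPM in Con and 189.8, 222 and 169.8 CPM in Van. Con 1 was the lowest and Van 2 the highest, and the groups overlapped. The means were 175 ± 19.4 and 194 ± 26.1 CPM (SD, n = 3 each), with a log2 fold change of 0.14 (SE 0.111, 95% CI -0.11 to 0.40, edgeR adjusted p = 0.592). It was 0.037 without Van 2, 0.05 without Con 1 and 0.23 without Van 3. A transcript of Gm38317 matches Itgb5 over 343 bases at 99.7% identity, and that gene had 0.832 ± 0.200 CPM in the Con and 0.936 ± 0.317 CPM in the Van libraries.

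**Figure D2:**
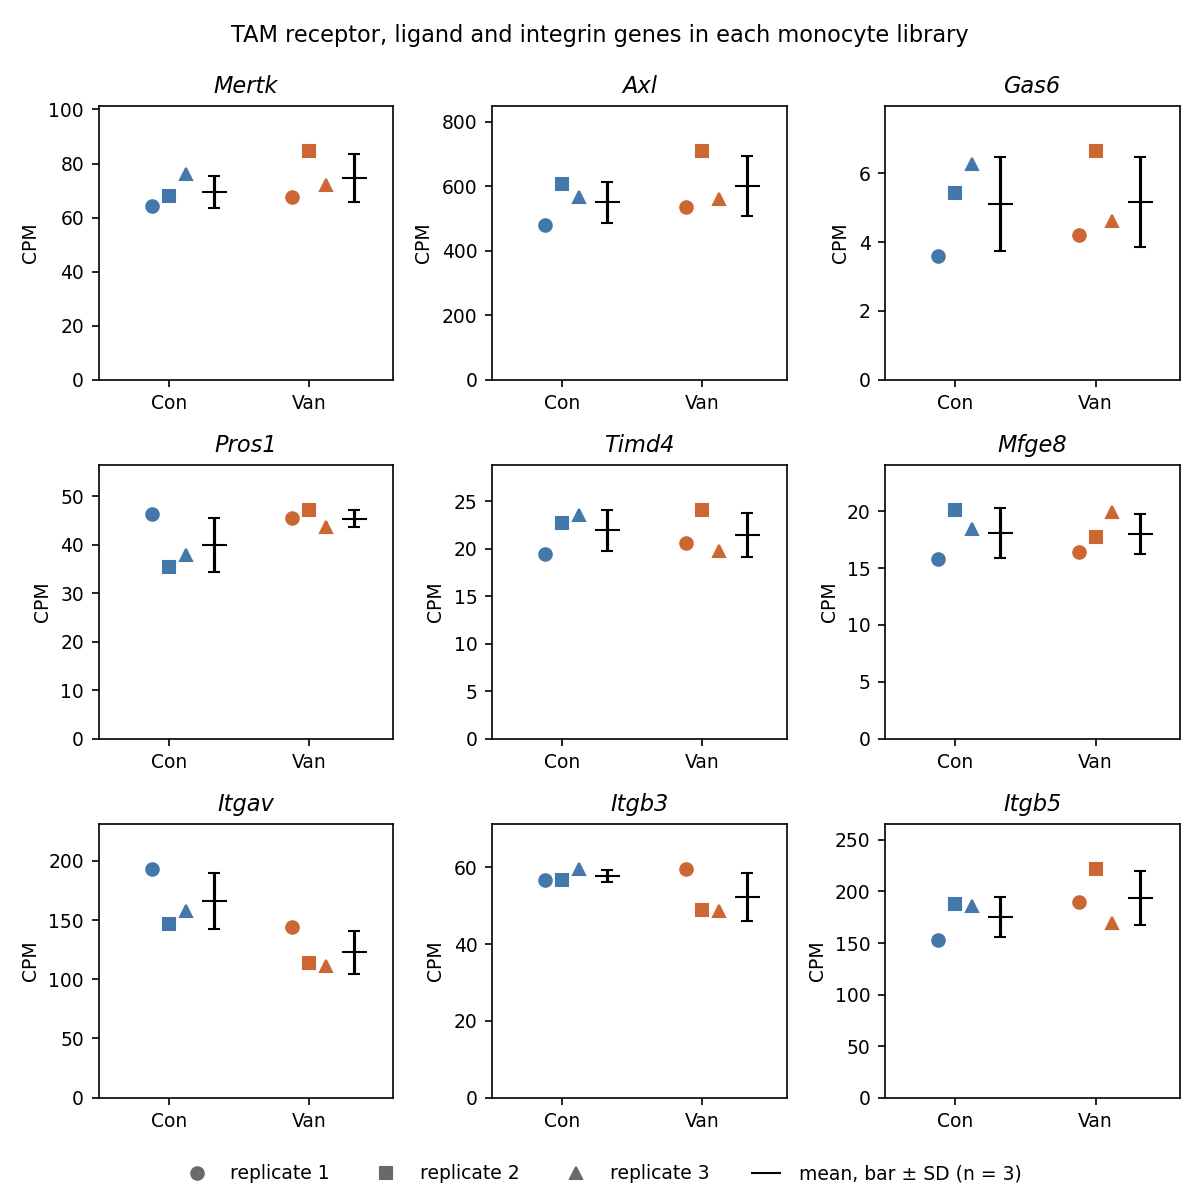
CPM of the 9 genes tested in each library (blue, Con; orange, Van; the shape marks the replicate number), with the mean and SD of each group (n = 3) to the right of its points and each axis starting at 0. Itgav is the gene whose Van points (111 to 144 CPM) all lie below its Con points (147 to 193 CPM).

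**Figure D3:**
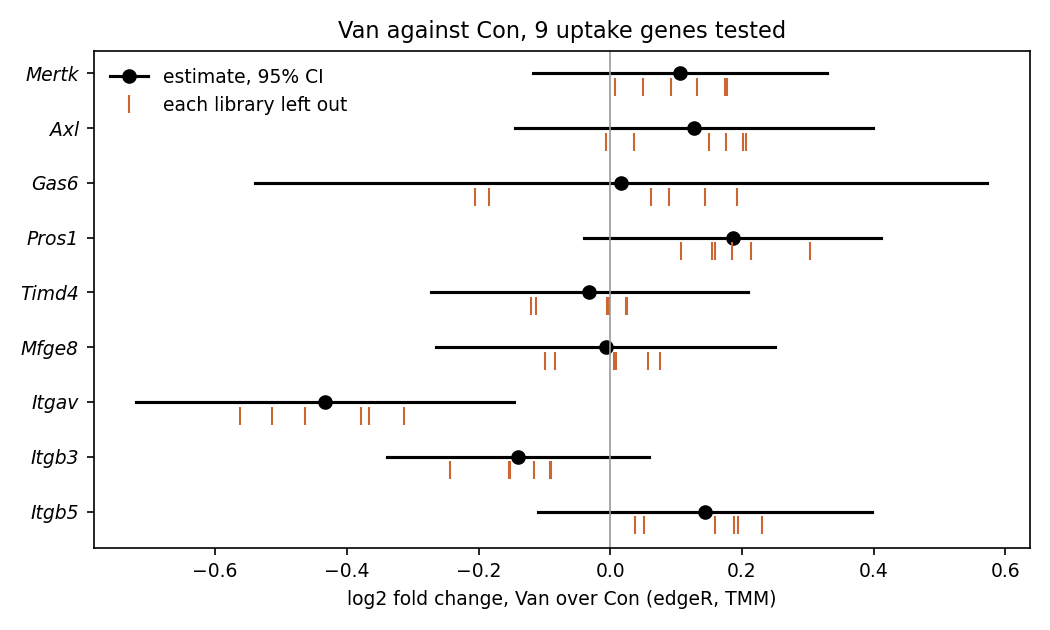
Log2 fold change of Van over Con for the 9 genes tested, with the edgeR estimate and its 95% confidence interval in black and the 6 estimates with 1 library left out as orange ticks. The interval of Itgav (-0.72 to -0.15) is the one that lies on 1 side of 0 before adjustment for the number of genes tested, and the ticks of Axl, Gas6, Timd4 and Mfge8 fall on both sides of 0.

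Ratios between partner genes within a library do not depend on the scaling between libraries, and 5 of them were tested by exact two-sided permutation of FPKM ratios, chosen after the values of the genes were seen. The ratio of Itgav to Itgb3 was 2.90, 2.20 and 2.28 in Con and 2.12, 2.02 and 2.00 in Van. The Van mice were all lower, with means of 2.46 ± 0.384 and 2.04 ± 0.0663 (SD, n = 3 each), and the exact test gave p = 0.1, or 0.333 after Benjamini-Hochberg adjustment over the 5 ratios. The ratio of Itgav to Itgb5 had means of 0.435 ± 0.117 in Con and 0.295 ± 0.0585 in Van, with overlapping groups (exact permutation p = 0.2, adjusted 0.333).

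The ratio of Axl to Mertk stayed between 7.53 and 8.98 over the 6 libraries, with means of 8.03 ± 0.823 in Con and 8.15 ± 0.308 in Van (SD, n = 3 each; exact permutation p = 0.9). No mouse stood apart in this ratio. The ratio of Pros1 to Gas6 ranged from 4.75 to 10.1 and that of Itgb5 to Itgb3 from 5.10 to 8.59 (exact permutation p = 0.8 and 0.2 between the groups). With 3 mice per group this test cannot give a p under 0.1, so it could not call any of the 5 ratios at 0.05.

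Several of the genes shared an order of the libraries. Con 1 was the lowest library for 6 of the 9 genes and Van 2 the highest for 6 of the 9, and both held for 5 (Mertk, Axl, Gas6, Itgb5 and, with Van 2 at 24.0 CPM, Timd4). Over all genes tested 4.76% had Con 1 lowest and Van 2 highest. Of the 12 splenic macrophage markers, 7 had this order, Con 1 being lowest for 7 and Van 2 highest for 10. This pattern was looked for after the values were seen and is a description, and samples of bulk RNA cannot tell apart fewer cells of a type and less RNA per cell.

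Pros1, Mfge8, Itgav and Itgb3 did not have that order. Con 1 was the highest library for Itgav, at 0.22 above the Con mean on the log2 scale, while the summed macrophage markers of Con 1 lay at -0.16. In Van 2 the sum was 0.40 above the Con mean, and Axl was 0.36, Itgb5 0.34, Mertk 0.28 and Itgav -0.55 relative to their own Con means. Among single macrophage markers, picked out after their values were seen, Vcam1 had 624 ± 72.6 CPM in the Con and 856 ± 90.9 CPM in the Van libraries (edgeR adjusted p = 0.0621, or 0.0372 with no filter on low counts, DESeq2 adjusted p = 4.3e-04), Cd163 at 79.1 ± 14.6 and 103 ± 15.7 CPM (adjusted p = 0.255 by edgeR), and Spic at 94.8 ± 2.70 and 99.3 ± 16.8 CPM (adjusted p = 0.830 by edgeR; SD, n = 3 each). The 2 markers with a negative log2 fold change were Siglec1 (-0.45, edgeR adjusted p = 0.151, DESeq2 adjusted p = 0.0191) and Cd209b (-0.50, edgeR adjusted p = 0.477). The part of macrophage RNA in the levels of the uptake genes was not tested.

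**Figure D4:**
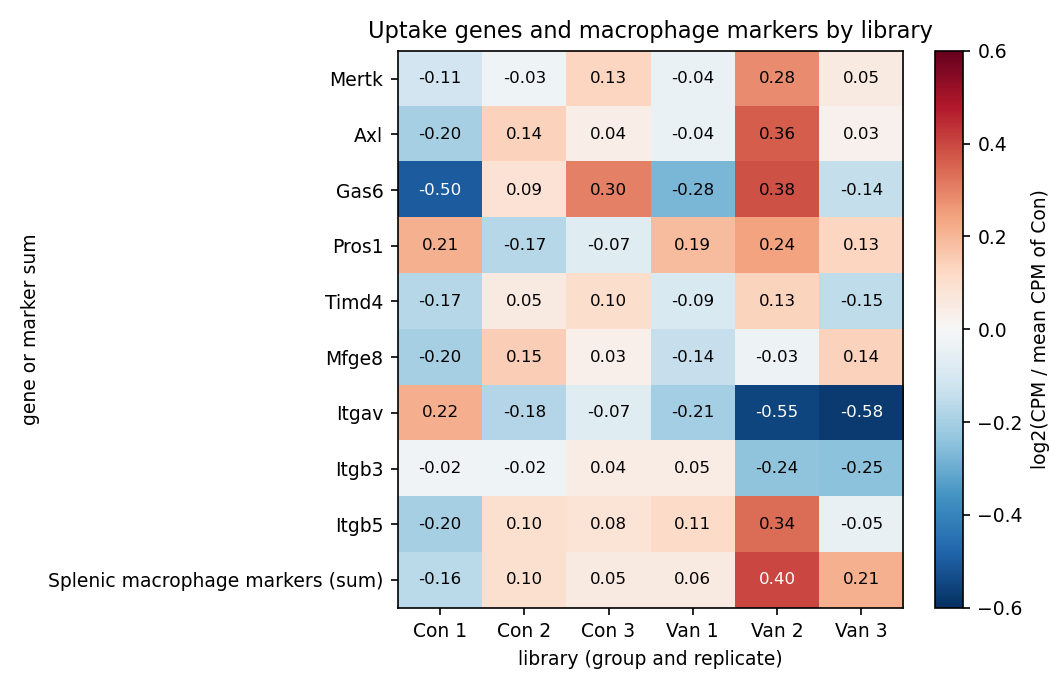
Log2 ratio of each library's CPM to the mean CPM of the 3 Con libraries, for the 9 genes tested and for the sum of 12 splenic macrophage markers (red, above the Con mean; blue, below). Con 1 is below the Con mean for Mertk, Axl, Gas6, Timd4, Mfge8 and Itgb5, by little for Itgb3 (-0.02), and for the marker sum (-0.16), Van 2 is above it for the first 4 of these, for Itgb5, for Pros1 (0.24) and for the sum (0.40), and Itgav runs from 0.22 in Con 1 to -0.58 in Van 3.

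Genes with the profile most like that of Mertk over the 6 libraries, by Pearson correlation of log2 CPM among 12684 genes, were Cbx6 (r = 0.989), Ubox5 (r = 0.989) and Trf (r = 0.985). Those most like Axl were Gtf2ird1 (r = 0.983), Cntrob (r = 0.979) and Gpd1 (r = 0.977). Axl stood at place 214 in the order for Mertk, with r = 0.855. These are descriptions over 6 libraries that share their depth and preparation, and with so many genes high values of r are common.

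Of 85 further genes of apoptotic cell uptake, from recognition to the handling of ingested lipid, 84 were in the tables and 77 were tested. By edgeR, 2 of the 77 were called, both lower in Van, which is 2.60% against 2.00% of all genes. The list had 40 genes with a positive and 37 with a negative log2 fold change and a median of 0.01. At an unadjusted p under 0.05 there were 20 genes (26.0%, against 16.5% of all genes), 9 higher and 11 lower, and DESeq2 called 10 of the list, where it called 7.36% of all genes. Those were Abcg1, C1qb, Calr, Cd14 and Nr1h3 (higher in Van) and Dock2, Trio, Lipa, P2ry12 and Vav3 (lower), the last of them named after its values were seen. The phosphatidylserine receptors Adgrb1 and Havcr1, the engulfment genes Megf10 and Gulp1, Twist1 and the integrin chains Itgb6 and Itgb8 had too few counts to be tested.

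Both called genes belong to the engulfment signalling that lies downstream of the integrins and other uptake receptors. Dock2, the exchange factor that activates Rac in leukocytes, measured 744, 688 and 743 CPM in Con and 619.7, 581 and 593 CPM in Van, and fell by 0.28 on the log2 scale (SE 0.0558, edgeR adjusted p = 0.0470). Trio, an exchange factor for RhoG and Rac, measured 113, 119.6 and 125 CPM in Con and 85.4, 85.4 and 98.8 CPM in Van, and fell by 0.41 on the log2 scale (SE 0.0755, edgeR adjusted p = 0.0372). For both, all Van libraries lay below all Con libraries, a separation in either direction that 22.5% of all genes showed.

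The call of Dock2 was lost with any 1 library left out (edgeR adjusted p from 0.0681 to 0.189), and that of Trio with any library but Van 3 left out (0.0436 to 0.156), while DESeq2 gave adjusted p values of 4.2e-04 and 8.5e-05. Neither was called in the 3 limma fits (adjusted p = 0.0547 to 0.107 for Dock2 and 0.0742 to 0.172 for Trio). The same held for edgeR with the replicate number as a block (adjusted p = 0.0948 for Dock2 and 0.0505 for Trio). Of the 12 engulfment genes tested, 9 were lower and 3 higher in Van, with a median of -0.04. RhoG itself (Rhog), the most abundant of the role at 226 FPKM, had a log2 fold change of 0.12 (edgeR adjusted p = 0.400).

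The 6 receptors by which phagocytes sense find-me signals all had a negative log2 fold change, with a median of -0.23, and edgeR called none while DESeq2 called 1, P2ry12. P2ry12, an ADP receptor that platelets and microglia also use, measured 23.4 ± 1.68 CPM in the Con libraries against 16.7 ± 2.32 CPM in the Van libraries (SD, n = 3 each). Its log2 fold change was -0.48 (edgeR adjusted p = 0.0720, DESeq2 adjusted p = 0.00725). Cx3cr1, the fractalkine receptor of patrolling monocytes and the most abundant of the 6 at 113 FPKM, had a log2 fold change of -0.17 (edgeR adjusted p = 0.372). Among the inhibitory partners, Sirpa, the receptor for the do-not-eat-me signal CD47, was at 293 FPKM with a log2 fold change of 0.02 (edgeR adjusted p = 0.928).

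Soluble bridging molecules had the highest median of any role, 0.22 over 9 genes, of which 7 were higher in Van, and edgeR called none while DESeq2 called 2 (C1qb, adjusted p = 0.00967, and Calr, adjusted p = 0.0318). Complement C1q, which coats apoptotic cells, had log2 fold changes of 0.26 (C1qa), 0.34 (C1qb) and 0.24 (C1qc), with edgeR adjusted p values of 0.292, 0.107 and 0.362. Calr, calreticulin, an eat-me signal on dying cells, had 0.31 (edgeR adjusted p = 0.157). Without Van 2 the log2 fold changes were 0.16 for C1qa, 0.22 for C1qb, 0.11 for C1qc and 0.19 for Calr, and without Con 1 those of C1qa and C1qc were 0.16 and 0.15. Thbs1, thrombospondin, was the most abundant of the role at 293 FPKM, and its log2 fold change was 0.14 (edgeR adjusted p = 0.761). The C1q and Calr values were picked out after they were seen, and C1q is made mainly by macrophages, whose summed markers stood at 3039 to 3628 CPM in Con and 3527 to 4488 CPM in Van. The part of macrophage RNA in the C1q levels was not tested.

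By sign the other receptors were mixed. Of 7 further phosphatidylserine receptors 4 were higher and 3 lower, and the most abundant, Cd300a at 118 FPKM, had a log2 fold change of 0.03 (edgeR adjusted p = 0.856). Stab1, a scavenger receptor of tissue macrophages and endothelium, was low, with 7.31 ± 2.99 CPM in the Con libraries against 4.03 ± 1.14 CPM in the Van libraries (SD, n = 3 each). Its log2 fold change was -0.86 (edgeR adjusted p = 0.215), and -0.49 without Con 3. Of 7 scavenger receptors including Lrp1, 4 were higher and 3 lower, and Cd14, a tether for apoptotic cells and coreceptor for lipopolysaccharide, measured 285 ± 19.1 CPM in the Con libraries against 346 ± 25.7 CPM in the Van libraries, with a log2 fold change of 0.28 (edgeR adjusted p = 0.101, DESeq2 adjusted p = 0.00932).

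Of 12 genes that handle lipid after uptake, 7 were higher, 5 were lower and none was called by edgeR. Abcg1, the cholesterol exporter, measured 168, 143 and 159 CPM in Con and 210.4, 192 and 196 CPM in Van, with no overlap and a log2 fold change of 0.35 (SE 0.0722, edgeR adjusted p = 0.0511, DESeq2 adjusted p = 6.6e-04). With 4 other filters or scalings edgeR called Abcg1, at adjusted p values of 0.0370 to 0.0448. Nr1h3, which encodes the sterol-sensing LXR alpha that controls Abcg1 and Mertk in macrophages and is also among the macrophage markers, had 0.33 (edgeR adjusted p = 0.115, DESeq2 adjusted p = 0.0199). Lipa, the lysosomal acid lipase, stood on the other side, with 344 ± 40.1 CPM in the Con libraries against 266 ± 15.0 CPM in the Van libraries and a log2 fold change of -0.37 (edgeR adjusted p = 0.0769, DESeq2 adjusted p = 0.00332, limma adjusted p = 0.131 to 0.277). Without Con 1 edgeR gave Lipa an adjusted p of 0.0355, and without any other single library 0.163 to 0.250. Ucp2, the mitochondrial carrier that sustains repeated uptake and the most abundant of the role at 434 FPKM, had 0.16 (edgeR adjusted p = 0.300).

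In the phagosome role, 7 of 12 genes were higher and 5 lower with a median of 0.01, and Cybb, the oxidase subunit used in LC3-associated phagocytosis and the most abundant at 433 FPKM, had a log2 fold change of -0.19 (edgeR adjusted p = 0.174). Of 8 genes that mature, shed or relay TAM signals, 5 were higher and 3 lower, and neither tool called any. Itgb1, the other beta chain of alpha-v that could be tested, was at 139 FPKM with a log2 fold change of 0.03 (edgeR adjusted p = 0.916).

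**Figure D5:**
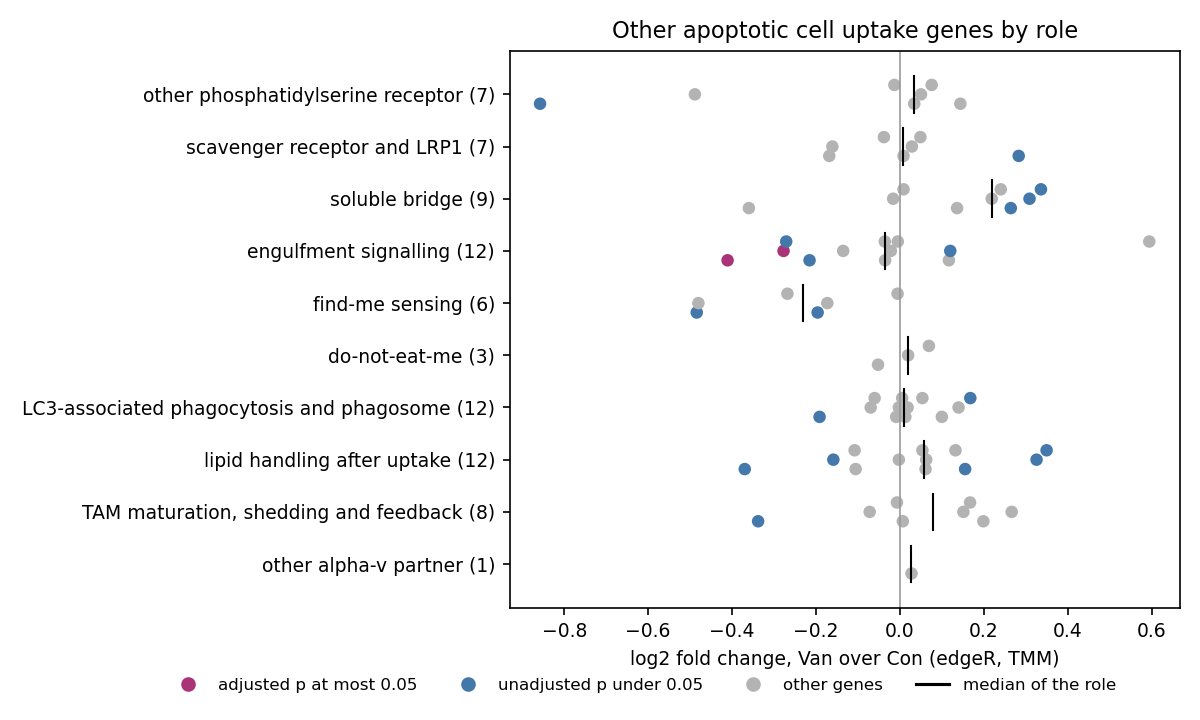
Log2 fold change of Van over Con for 77 further uptake genes, 1 point per gene, grouped by role with the number tested in brackets (purple, edgeR adjusted p at most 0.05; blue, unadjusted p under 0.05; grey, the rest; black line, median of the role). The purple points are Dock2 and Trio among the engulfment genes, the median is -0.23 for find-me sensing and 0.22 for soluble bridges, and the other roles have medians between -0.04 and 0.08.

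Markers of other cells that differed between the groups are given beside these genes because bulk RNA sums over cells. The 12 monocyte markers included 1 gene called by edgeR, Ccr2, the chemokine receptor of classical monocytes, which fell by 0.83 on the log2 scale, from 731 ± 44.8 CPM to 411 ± 83.7 CPM (SD, n = 3 each; edgeR adjusted p = 0.0283). DESeq2 also called Itgam, lower in Van. Of 11 erythroid genes tested, 5 were called by edgeR and higher in Van, Hba-a1, Hba-a2, Hbb-bs, Hbb-bt and Alas2, and the list summed to 105 to 190.4 CPM in Con and 297 to 644 CPM in Van. The near-identical Hba-a1 and Hba-a2 can share reads, as can Hbb-bs and Hbb-bt.

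edgeR made 1 call in each of 4 other lists, and DESeq2 added Xcr1 and Siglech of dendritic cells and Il7r of T cells, all lower in Van. Lower in Van were Clec9a of dendritic cells (log2 fold change -1.12, edgeR adjusted p = 0.0131), Ighm of B cells (-0.52, edgeR adjusted p = 0.0162) and Klrk1 of NK cells (-0.90, edgeR adjusted p = 0.0495, or 0.0510 with other size factors), and Pecam1 of endothelium, which monocytes and platelets also carry, was higher (1.14, edgeR adjusted p = 0.0308). The summed B cell markers were 945 to 1127 CPM in Con and 723 to 856 CPM in Van, the T cell markers 50.2 to 64.6 and 37.0 to 51.2 CPM, the dendritic cell markers 226 to 291 and 198 to 235 CPM, the NK cell markers 26.1 to 39.5 and 14.9 to 21.9 CPM, and the neutrophil markers 41.9 to 66.1 and 36.5 to 93.2 CPM. Single genes made up most of some sums. Klrk1 had means of 31.4 ± 6.75 CPM in Con and 16.7 ± 3.55 CPM in Van, and Mmp8, the most abundant neutrophil marker, had 42.2 ± 16.1 and 59.7 ± 28.1 CPM (SD, n = 3 each; edgeR adjusted p = 0.545), while the other 7 of the 8 neutrophil markers tested had negative log2 fold changes and none was called. The stromal and endothelial markers summed to 68.3 to 79.6 CPM in Con and 114 to 189 CPM in Van, of which Pecam1 made up 57.9 ± 6.71 and 128 ± 38.6 CPM (SD, n = 3 each). Of these 12 genes 7 had a negative log2 fold change, with a median of -0.11. The 10 marker genes called by edgeR were not called by limma on log2(FPKM + 0.1) or log2(FPKM + 1), with adjusted p between 0.0983 and 0.255, while limma on the latter with an FPKM of at least 1 in 3 libraries called 4 of them (Ccr2, Ighm, Alas2 and Hbb-bt, adjusted p = 0.0367 to 0.0492). All 10 calls were lost by edgeR without Con 3 (adjusted p = 0.0721 to 0.161) and without Van 2 (adjusted p = 0.0758 to 0.179). The magnetic selection is directed at T, B and NK cells and neutrophils among these, and the part of the marked cells in the levels of Itgav, Dock2 and Trio was not tested.

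Leaving out a single mouse changed these calls. By edgeR, Dock2, Trio and the 10 marker genes called were each lost without Con 3 (adjusted p from 0.0721 to 0.163) and without Van 2 (adjusted p from 0.0758 to 0.189), while all 12 were called by DESeq2.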

How the data were processed

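Poly(A) RNA of 3 Con and 3 Van monocyte samples was analysed. The authors aligned paired reads of 100 bases to GRCm38 with HISAT2 2.2.1 and SAMtools 1.9, computed the FPKM table with StringTie 2.1.3 and Ballgown, and derived gene counts from it with tximport. The deposited estimated counts (expected counts, not whole numbers) carry no scaling between libraries, and the deposited FPKM values are scaled by the authors to transcript length and library size. Between 52.3% and 55.0% of counts became whole (within 0.05) when multiplied by 75, which is therefore likely to be the read length the counts assume. Multiplied by 0.375 they estimate fragments, and the true depth is below the printed totals to that extent. The annotation release and the use of strand in counting are not given in the sources used here. No column of authors' comparisons was present and 0 columns of other samples were found.

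Estimated counts were rounded and tested in R 4.3.3 with edgeR 4.0.16 (TMM, expression filter at a minimum count of 10, quasi-likelihood test, group as the only term, Benjamini-Hochberg over all genes tested). The threshold for a call was an adjusted p of 0.05. CPM used TMM library sizes, SE and 95% intervals came from the fit, and single genes were also tested by exact permutation. DESeq2 1.42.0 and limma 3.58.1 (FPKM after quantile normalization, as log2 with 1 or 0.1 added) were alternatives, as were other filters and scalings, the replicate number as a block, and leaving out each library. The fits were first tested on simulated counts in which 200 genes differed. Each library came from a separate mouse, and none was merged. The p-values of the fits set the group difference against the variation between 3 mice per group, estimated with information shared across genes. The mice were housed in groups, and which of them shared a cage is not stated, so an effect of cage cannot be told apart from one of treatment.

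The 10 genes and the lists were chosen with earlier results of these data known. Named from the lists were all genes called, the 6 uptake genes with the largest absolute log2 fold change at an unadjusted p under 0.05 and a mean of at least 1 CPM, the gene with the highest FPKM of each role and the 3 genes most correlated with Mertk and with Axl. C1qa, C1qb, C1qc, Calr, Nr1h3, Vcam1, Cd163, Spic, Siglec1, Cd209b, Hmox1, Slc40a1, Csf1r, Lyz2, Mmp8, the markers called by DESeq2 alone, Vav3 and the overlapping genes were added after their values were seen. Some genes that these choices would name are not reported here. Coordinates are from GENCODE M21, in which 45223 of the 46072 identifiers and all 10 genes were found. Overlaps are shared exon bases, and near-identical copies are transcript matches of at least 200 bases at 95% identity.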

Additional observations from a re-analysis of the deposited data

How the results depend on the processing

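Of 99 estimates for the 9 genes under 11 alternatives that kept all libraries, none changed sign, and 97 stayed on the same side of the threshold. The exceptions were Itgav with DESeq2 (-0.43, adjusted p = 0.0115) and with the replicate number as a block in edgeR (-0.43, adjusted p = 0.0453; the block called 0.682% of all genes), which made 1 called gene of the 9 in each, against 0. The numbers are not stated to pair mice, and deviations of same-numbered libraries correlated at 0.03, -0.0019 and -0.07, so the block is no paired test. With 1 library left out, the log2 fold change ranged from -0.56 to -0.31 for Itgav, -0.0068 to 0.21 for Axl, -0.20 to 0.19 for Gas6, -0.12 to 0.025 for Timd4 and -0.10 to 0.075 for Mfge8, and 0 of the 9 genes were called in each of these fits. Among further named genes the sign also turned for Cd300a (-0.0028 to 0.076), Thbs1 (-0.048 to 0.25), Sirpa (-0.031 to 0.076), Itgb1 (-0.033 to 0.086), Spic (-0.080 to 0.14) and Gm38317 (-0.10 to 0.38), and Itgb1 was at -0.012 in the 3 limma fits. Stab1 (-0.86) was at -0.48 and -0.23 in the 2 limma fits that kept it. Without Van 3 Cx3cr1 was at -0.08 (-0.17), and without Con 1 Cd163 was at 0.23 (0.38).

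Over all genes 322 were called, against 962 with DESeq2 (490 higher, 472 lower), 110 with the replicate block (66 higher, 44 lower), 21, 11 and 99 with limma on log2(FPKM + 0.1), on log2(FPKM + 1) and on the latter with an FPKM of at least 1 in 3 libraries, and 21 to 136 with 1 library left out (22, of which 20 higher, without Con 3; 21, of which 18 higher, without Van 2). The limma fits called 16 higher of 21, 9 of 11 and 61 of 99. Of the uptake list 2 genes were called, both lower, against 3 (Abcg1, higher, added) with at least 10 counts in every library, on the fragment scale, with library size alone and with no filter, 10 with DESeq2, 0 in the 3 limma fits and with the block, and 0 to 1 with a library left out. Its median was 0.0066, against -0.018 in the 3 limma fits and -0.019 to 0.032 with a library left out. With the block Ccr2 (adjusted p = 0.0549), Ighm (0.0548), Dock2 (0.0948) and Trio (0.0505) were no longer called by edgeR, and Vcam1 was (adjusted p = 0.0383). Clec9a (-1.12) was at -0.59 in limma on log2(FPKM + 1). The causes were not tested. Depth limits what can be said of Tyro3, and having 3 mice per group limits the rest.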
